A study of Oryza sativa Japonica Group with 4 samples.

Results

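The circadian clock of rice leaves was described through 9 of the 33744 genes in the deposited table: the morning gene LHY, the pseudo-response regulator genes PRR73, PRR37, PRR95, PRR59 and TOC1, and the evening genes GI, ELF3-1 and LUX. They were picked by gene identifier, and the name or description in the table matched the clock gene for 9 of 9. The table lists LHY as CCA1, TOC1 as OsPRR1, PRR37 as Hd2, ELF3-1 as HD3B and LUX as OsPCL1. Leaf RNA of Japonica rice seedlings, harvested at an age of 14 days after 6 h of drought, was sequenced. The line OE13-2KR/oswox13-1, labelled drought sensitive, gave 2 libraries, and the line OE13, labelled drought resistant, gave 2. OsWOX13 belongs to the WOX family of homeobox proteins, and the study asked about its acetylation. By their names the lines differ both in the 2KR form and in the oswox13-1 background, and these cannot be told apart here. Each of the 4 libraries came from drought-treated plants, so no value below describes a response to drought. The labels give neither the hour of harvest nor the light regime, on which levels of clock transcripts depend, and they do not say whether the lines were harvested together.

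The plant clock is a ring of transcriptional repressors that pass activity from one to the next over the day. In Arabidopsis, the MYB factor LHY is made around dawn and represses evening genes, the PRR proteins then repress LHY in turn through the day, and TOC1 is the last of them. ELF3 and the GARP factor LUX join ELF4 in the evening complex, which represses PRR and GI genes at night. GI, a large protein that stabilises the F-box blue-light receptor ZTL, also couples the clock to photoperiodic flowering. In rice, PRR37 and ELF3-1 are known as heading date genes.

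All 9 genes were expressed well above the minimum for testing, a mean of 1 FPKM (fragments scaled by gene length and library size, the authors' measure of level per length). PRR37, GI, PRR95 and PRR73 formed an abundant group, with means over the 4 libraries of 941, 885, 606 and 524 FPKM. TOC1, ELF3-1, LHY and PRR59 lay about an order of magnitude below, at 67.5, 45.6, 44.1 and 37.0 FPKM, and LUX was lowest at 12.4 FPKM. The lowest library of PRR73, 512 FPKM, lay far above the highest of TOC1, 94.2 FPKM, and the lowest of PRR59, 29.7 FPKM, above the highest of LUX, 14.6 FPKM. All other neighbours in this order overlapped in their ranges over the 4 libraries. GI nevertheless exceeded PRR95 in 4 of 4 libraries. PRR95 exceeded PRR73 only in the OE13 pair.

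**Figure D1:**
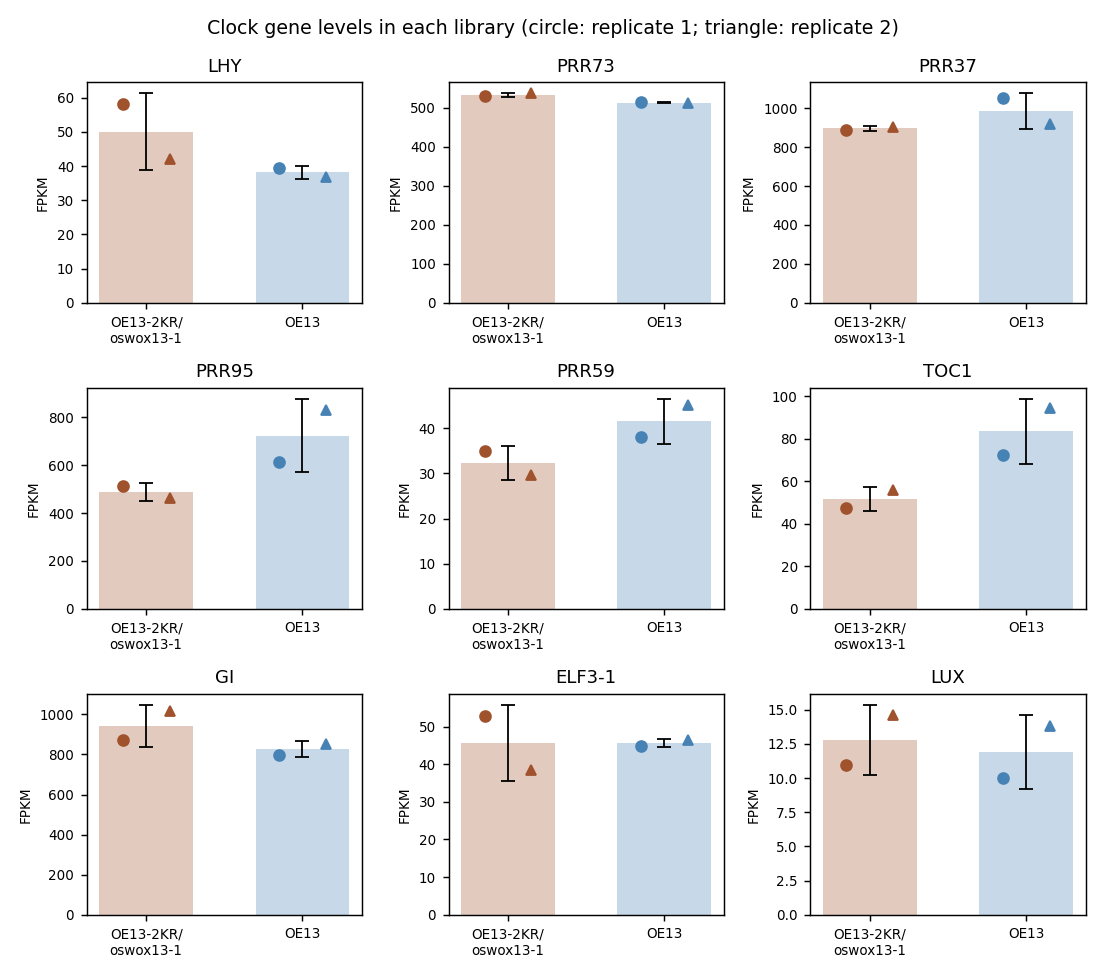
FPKM (vertical axes, each from 0) of the 9 clock genes in OE13-2KR/oswox13-1 (left) and OE13 (right). Bars are means and error bars SD of 2 libraries, and the circle and the triangle are replicates 1 and 2. TOC1, PRR95 and PRR59 stood lower in both OE13-2KR/oswox13-1 libraries than in either OE13 library, while ELF3-1 and LUX overlapped.

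The comparison of OE13-2KR/oswox13-1 with OE13 asked whether the clock genes differed between the lines under drought. No clock gene passed the threshold of limma's test, a Benjamini-Hochberg adjusted p under 0.05 over the 20174 genes tested. The lowest adjusted p of the 9 was 0.211, for TOC1. Over all genes 0.00496% passed, which is 1 gene. At an unadjusted p under 0.05, TOC1 was lower in OE13-2KR/oswox13-1 and 0 clock genes were higher, whereas 20.0% of all genes reached it (12.0% lower, 8.00% higher). Libraries of the lines did not overlap for 7 of the 9 genes. Of these 7, LHY, PRR73 and GI were higher in OE13-2KR/oswox13-1 and TOC1, PRR95, PRR59 and PRR37 lower. Over all genes 56.2% did not overlap (23.4% higher, 32.8% lower), so such a gap is common in these libraries. The median log2 fold change of the 9 genes, -0.016, lay near that of all genes, -0.08. All fold changes compare log2(FPKM + 1) values, which shrinks those of low genes, and the 95% intervals are not adjusted for the number of genes tested.

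LHY (Os08g0157600, chromosome 8, 3372020 to 3373395, plus strand), the dawn-phased MYB repressor, had 58.1 and 42.0 FPKM in OE13-2KR/oswox13-1, against 39.5 and 36.8 FPKM in OE13. Both OE13-2KR/oswox13-1 libraries were the higher ones, but replicate 1 of that line stood apart from the other 3 libraries, which lay close together. Means were 50.0 ± 11.3 FPKM in OE13-2KR/oswox13-1 and 38.2 ± 1.89 FPKM in OE13 (SD, n = 2 each). This is a log2 fold change of 0.36 (SE 0.22, 95% interval -0.19 to 0.92, limma adjusted p = 0.388). It rested on that 1 library, being 0.14 when it was left out and 0.59 when replicate 2 of the same line was left out (limma adjusted p = 0.400). The difference between the lines was smaller than the difference of 0.46 between the replicates of OE13-2KR/oswox13-1.

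TOC1 (Os02g0618200, chromosome 2, 24569489 to 24572391, plus strand), the pseudo-response regulator that closes the loop by repressing LHY in Arabidopsis, differed most among the 9. It had 47.6 and 55.7 FPKM in OE13-2KR/oswox13-1, against 72.5 and 94.2 FPKM in OE13. The lines did not overlap, and the highest library had 1.98 times the level of the lowest. Means were 51.6 ± 5.73 FPKM in OE13-2KR/oswox13-1 and 83.4 ± 15.4 FPKM in OE13 (SD, n = 2 each), which is 38.1% lower in OE13-2KR/oswox13-1. The log2 fold change was -0.67 (SE 0.21, 95% interval -1.21 to -0.14). Its limma p was 0.0223 before and 0.211 after adjustment. Leaving out OE13-2KR/oswox13-1 replicate 1 gave a log2 fold change of -0.56, and leaving out OE13 replicate 2 gave -0.49. In both cases the unadjusted p was no longer under 0.05.

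PRR95 (Os09g0532400, chromosome 9, 20885173 to 20889792, minus strand) and PRR59 (Os11g0157600, chromosome 11, 2789002 to 2793728, plus strand) are daytime members of the same family, and each was lower in OE13-2KR/oswox13-1. PRR95 had 515 and 462 FPKM in OE13-2KR/oswox13-1, against 615 and 832 FPKM in OE13. PRR59 had 35.0 and 29.7 FPKM in OE13-2KR/oswox13-1, against 38.0 and 45.1 FPKM in OE13. For both genes OE13 replicate 2 was the highest library and OE13-2KR/oswox13-1 replicate 2 the lowest, so replicate 1 of each line lay between them. The log2 fold change of PRR95 was -0.55 (SE 0.23, 95% interval -1.14 to 0.04, limma adjusted p = 0.270) and fell short of the threshold. That of PRR59 was -0.35 (SE 0.20, 95% interval -0.84 to 0.14, limma adjusted p = 0.360). For both the difference between the lines exceeded the difference between replicates in either line, as it did for TOC1 and the nearly level PRR73. OE13 replicate 2 weighed on PRR95 and PRR59: without it their log2 fold changes were -0.33 and -0.23. Without OE13 replicate 1 that of PRR95 was -0.77.

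PRR73 (Os03g0284100, chromosome 3, 9759666 to 9768689, minus strand) and PRR37 (Os07g0695100, chromosome 7, 29616705 to 29629215, plus strand), the closely related pair of the family, were abundant and nearly level. PRR73 had 530.0 and 537 FPKM in OE13-2KR/oswox13-1, against 515 and 512 FPKM in OE13. It was the steadiest of the 9, with 1.05 times as much in the highest library as in the lowest. Its log2 fold change was 0.056 (SE 0.18, 95% interval -0.41 to 0.52, limma adjusted p = 0.882). Under quantile normalisation it was -0.036, so it has no settled direction. PRR37 had 887 and 904 FPKM in OE13-2KR/oswox13-1, against 1051 and 919.9 FPKM in OE13 (log2 fold change -0.13, 95% interval -0.65 to 0.38, limma adjusted p = 0.730). The other 3 libraries lay together below OE13 replicate 1; without that library the log2 fold change was -0.038. Genes on the other strand cover 86.4% of the span of PRR73 and 43.2% of that of PRR37. These genes stood at no more than 0.253 and 6.59 FPKM in any library, far below the PRR genes they cover. A non-coding transcript on the same strand covers 11.0% of PRR73, at no more than 1.54 FPKM.

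GI (Os01g0182600, chromosome 1, 4329362 to 4338486, minus strand), the ZTL-stabilising protein gene, had 870.0 and 1017 FPKM in OE13-2KR/oswox13-1, against 797 and 853 FPKM in OE13. The ranges met closely without overlapping. Its log2 fold change was 0.19 (SE 0.21, 95% interval -0.34 to 0.72, limma adjusted p = 0.624), which was smaller than the difference of 0.23 between the replicates of OE13-2KR/oswox13-1. It stayed positive, from 0.08 to 0.30, when any 1 library was left out.

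The evening complex genes ELF3-1 and LUX showed no separation of the lines. Further genes tied to the complex, ELF3-2 and those named for ELF4, are given below. ELF3-1 (Os06g0142600, chromosome 6, 2234581 to 2239058, minus strand), which encodes the scaffold of the complex, had 52.8 and 38.4 FPKM in OE13-2KR/oswox13-1, against 44.9 and 46.3 FPKM in OE13. Both OE13 libraries fell between those of OE13-2KR/oswox13-1. LUX (Os01g0971800, chromosome 1, 42874273 to 42875515, minus strand), its DNA-binding partner, had 11.0 and 14.6 FPKM in OE13-2KR/oswox13-1, against 9.99 and 13.8 FPKM in OE13. For LUX the libraries of the 2 lines alternated, replicate 2 being the higher in each. The log2 fold changes were -0.016 for ELF3-1 (SE 0.22, 95% interval -0.56 to 0.53, limma adjusted p = 0.972) and 0.10 for LUX (SE 0.26, 95% interval -0.55 to 0.75, limma adjusted p = 0.845). With 1 library left out these ranged from -0.24 to 0.21 for ELF3-1 and from -0.12 to 0.32 for LUX, so neither has a settled direction. The intervals reach beyond 0.5 on either side, so differences of that size are not excluded here.

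**Figure D2:**
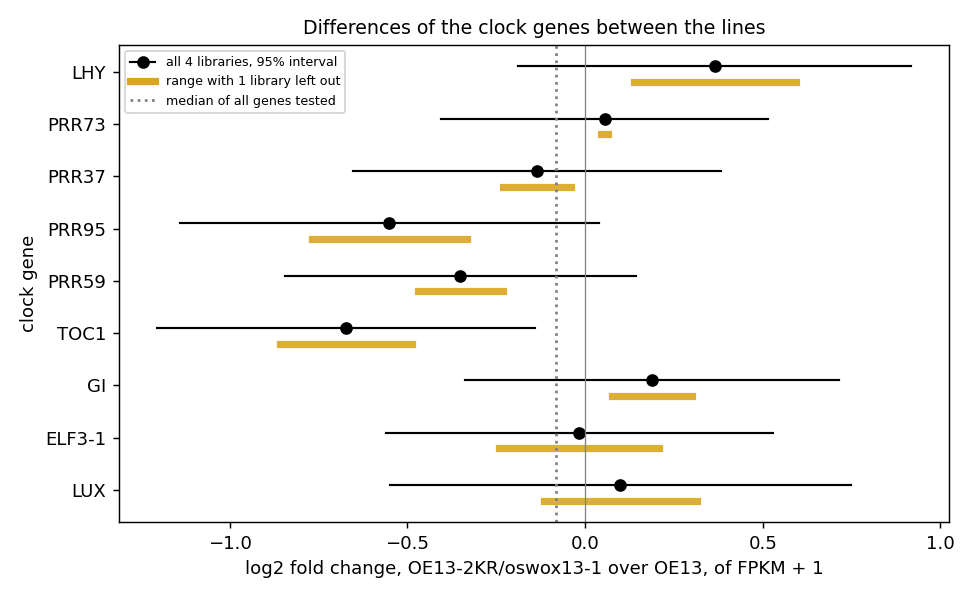
Log2 fold change of each clock gene (rows) in OE13-2KR/oswox13-1 over OE13, as a point with its 95% interval (black line), and its range when 1 library is left out (gold band). Only the interval of TOC1, from -1.21 to -0.14, lies clear of 0, and the bands of ELF3-1 and LUX cross 0.

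Setting clock genes against each other inside a library removes the library's scale, apart from the pseudocount. Where one gene of a pair was higher and the other lower without overlap, their difference had to separate the lines, so for such pairs the values show its size and the gap is no further observation. TOC1 stood at 0.820 and 1.33 times the FPKM of LHY in the OE13-2KR/oswox13-1 libraries, against 1.84 and 2.56 times in the OE13 libraries. On the log2(FPKM + 1) scale, LHY minus TOC1 averaged -0.06 ± 0.48 in OE13-2KR/oswox13-1 and -1.10 ± 0.33 in OE13 (SD, n = 2 each). LHY was thus above TOC1 in OE13-2KR/oswox13-1 replicate 1, below it in replicate 2 of that line, and below it in both OE13 libraries. LHY minus PRR59 gave 0.71 and 0.49 in OE13-2KR/oswox13-1, against 0.05 and -0.28 in OE13. LHY minus PRR95 averaged -3.28 ± 0.21 in OE13-2KR/oswox13-1 and -4.19 ± 0.38 in OE13.

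TOC1 minus GI and PRR95 minus PRR73 are pairs of the same kind. TOC1 minus GI gave -4.16 and -4.17 in OE13-2KR/oswox13-1, against -3.44 and -3.17 in OE13. In OE13-2KR/oswox13-1 this difference was the same in both libraries to within 0.01, whereas the OE13 libraries differed in it. PRR95 minus PRR73 was -0.04 and -0.22 in OE13-2KR/oswox13-1, against 0.26 and 0.70 in OE13, so the order of these abundant PRR genes differed between the lines. Both contrasts set out here whose separation was not fixed by the single genes overlapped. Other pairs of this kind were not computed. LHY minus GI stood at -3.88 and -4.57 in OE13-2KR/oswox13-1, against -4.30 and -4.50 in OE13. LHY minus the mean of TOC1, GI and LUX stood at -0.43 and -1.17 in OE13-2KR/oswox13-1, against -1.09 and -1.49 in OE13. These pairs were set out as descriptions with no test, and all but the last were chosen after the values had been seen; an exact permutation test of 2 against 2 libraries cannot go below p = 0.333.

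**Figure D3:**
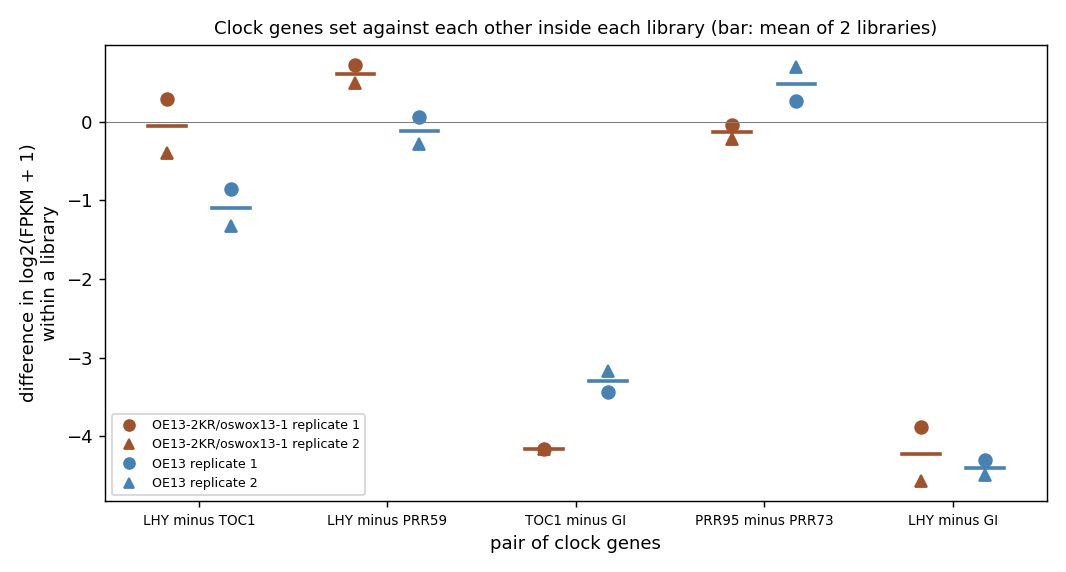
Difference in log2(FPKM + 1) between pairs of clock genes inside each library (vertical axis), with OE13-2KR/oswox13-1 left of OE13 for each pair; horizontal bars are means of 2 libraries. LHY minus TOC1, LHY minus PRR59, TOC1 minus GI and PRR95 minus PRR73 each join a gene higher with a gene lower without overlap, which fixes their separation, and LHY minus GI, where both genes were higher, overlaps.

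Likeness between the profiles was measured as the Euclidean distance of centred log2(FPKM + 1) values over the 4 libraries. TOC1 lay closest to PRR95 (distance 0.30), PRR95 and PRR59 lay closest to each other (0.25), and GI and PRR73 to each other (0.21). PRR73, which varied least, was also the closest to PRR37 (0.23) and ELF3-1 (0.34). The distance is not scaled by spread, so a small value can reflect little variation rather than a shared profile. LHY had no close counterpart, the nearest of the 8 other clock genes being ELF3-1 at 0.39. Among 13762 other genes with a mean of at least 5 FPKM, the closest to TOC1 were Os02g0583900, a non-coding transcript (0.017), Os04g0320200, a tetratricopeptide-like protein gene (0.059), and Os04g0281900, an uncharacterised membrane protein gene (0.065). The closest to LHY were Os03g0806600, a conserved hypothetical gene (0.055), Os08g0158500, a stomatin-like protein gene (0.069), and Os10g0447600, an MT-A70 family gene (0.070). Os08g0158500 lies on chromosome 8 as LHY does, 47.2 kb beyond it with 6 genes between. Over 4 libraries such near matches are easily found.

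The clock's partner proteins lay on both sides of 0. The list held 4 genes, of which 0 passed limma's test after adjustment, with a lowest adjusted p of 0.261. ELF3-2 (Os01g0566100), the paralogue of ELF3-1, had 141 and 116 FPKM in OE13-2KR/oswox13-1, against 144 and 229.8 FPKM in OE13 (log2 fold change -0.50, SE 0.28). FKF1 (Os11g0547000), an F-box blue-light receptor of the ZTL family, had 15.8 and 17.8 FPKM in OE13-2KR/oswox13-1, against 22.2 and 24.5 FPKM in OE13 (log2 fold change -0.45, SE 0.19). Both were lower in the OE13-2KR/oswox13-1 libraries than in either OE13 library. ZTL1 and ZTL2, whose Arabidopsis counterpart targets TOC1 for breakdown, were both higher there without overlap, a gap that 56.2% of all genes showed in one direction or the other. ZTL1 averaged 139 ± 3.61 FPKM in OE13-2KR/oswox13-1 and 119.6 ± 5.22 FPKM in OE13, and ZTL2 averaged 196 ± 12.2 and 169.5 ± 6.79 FPKM in the same order of lines (SD, n = 2 each).

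Photoperiod and flowering genes, which read the clock's output, gave 15 rows, of which 11 reached the minimum for testing. None passed after adjustment (lowest limma adjusted p 0.208), and at an unadjusted p under 0.05, OE13-2KR/oswox13-1 had 3 higher and 0 lower, beside 8.00% and 12.0% of all genes. The 3 were Hd1, the rice CONSTANS protein gene, CO3, a related B-box gene, and Ehd3, a PHD-finger promoter of flowering. Hd1 had 36.3 and 38.4 FPKM in OE13-2KR/oswox13-1, against 15.8 and 27.8 FPKM in OE13 (log2 fold change 0.80 with SE 0.29 and a limma adjusted p = 0.232). CO3 had 14.3 and 9.49 FPKM in OE13-2KR/oswox13-1, against 6.64 and 5.15 FPKM in OE13 (log2 fold change 0.88 with SE 0.27 and a limma adjusted p = 0.208). The lines did not overlap for either gene. Of the 11 genes tested, 4 were higher and 2 lower without overlap, beside 23.4% and 32.8% of all genes. The 2 lower were DTH2 and MADS51, at log2 fold changes of -0.40 and -0.20. Log2 fold changes were above 0 for 5 of the 11 and below 0 for 6, with a median of -0.04. A gene on the other strand covers all of Hd1, at no more than 2.92 FPKM. The florigen gene Hd3a was listed at 0 in 3 libraries and at 0.043 FPKM in OE13 replicate 1, and Ghd7, Ghd8 and MADS14 stayed below 0.41 FPKM in all 4.

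Photoreceptor and light signalling genes numbered 10, with a median log2 fold change of 0.14 and 0 passing after adjustment (lowest limma adjusted p 0.227). The median had no settled sign: it was -0.062 without OE13-2KR/oswox13-1 replicate 1, 0.33 without replicate 2 of that line, 0.29 without OE13 replicate 1 and 0.027 without OE13 replicate 2. CRY2, a cryptochrome blue-light receptor gene, had 141 and 145 FPKM in OE13-2KR/oswox13-1, against 109 and 94.4 FPKM in OE13 (log2 fold change 0.49, SE 0.18). PHYC, a phytochrome gene, had 135 and 107 FPKM in OE13-2KR/oswox13-1, against 150.4 and 197 FPKM in OE13 (log2 fold change -0.52 with SE 0.23 and a limma adjusted p = 0.282). These were the members of the list whose lines did not overlap, and the other 8 overlapped, where 56.2% of all genes did not. PIL13, a phytochrome-interacting factor gene, ranged most widely, at 36.3 and 14.7 FPKM in OE13-2KR/oswox13-1, against 19.7 and 12.6 FPKM in OE13, with replicate 1 the higher in each line.

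**Figure D4:**
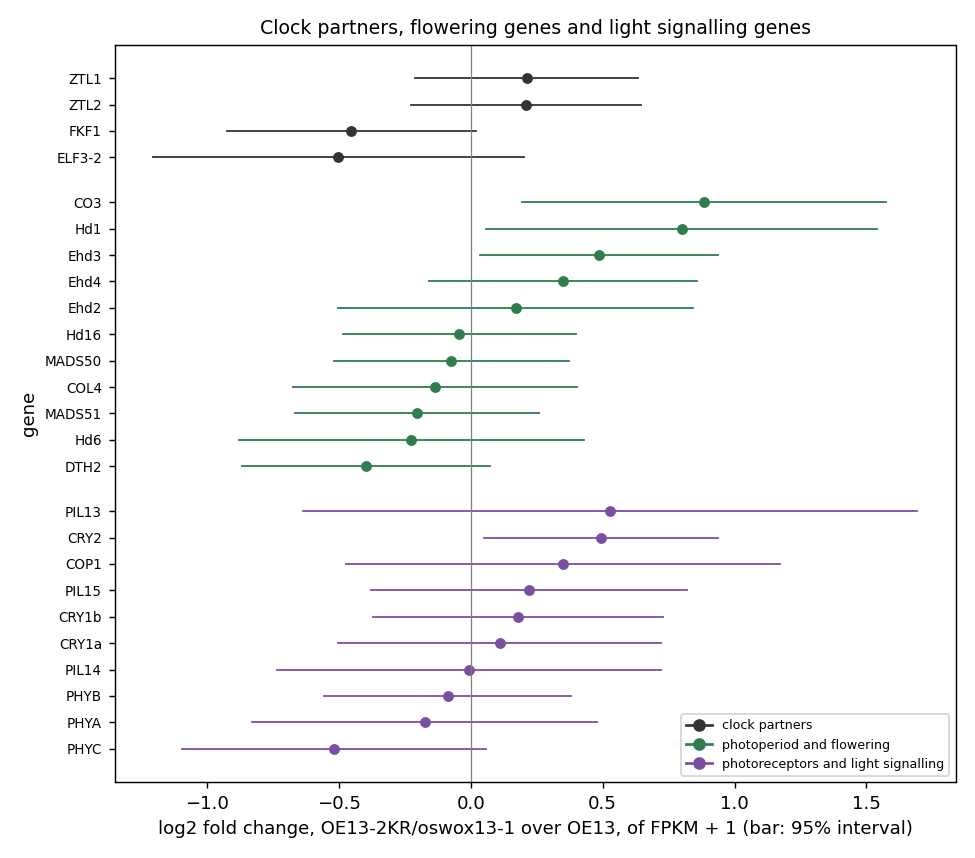
Log2 fold change in OE13-2KR/oswox13-1 over OE13 (horizontal axis) of the tested clock partners, flowering genes and light signalling genes (rows), with 95% intervals. The intervals of CO3, Hd1, Ehd3 and CRY2 lie above 0, none lies below 0, and none of these genes passed after adjustment.

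Leaf markers were high, and the root marker and seed marker that could be read, 1 of each, were near 0. No meristem marker had a row. The summed level of 4 leaf markers (a Rubisco small subunit, Rubisco activase and a pair of chlorophyll-binding proteins) was 9873 and 5081 FPKM in OE13-2KR/oswox13-1, against 16116 and 7986 FPKM in OE13. For 4 of 4 leaf markers, replicate 2 was below replicate 1 in both lines. Among the clock genes the same held for LHY, the opposite for TOC1, GI and LUX, and the other 5 differed in this between the lines. Their part in the clock results was not tested. The root marker NRT2.1 stood at no more than 0.212 FPKM and the seed marker GluA1 at no more than 0.939 FPKM. FPKM summed to between 931335 and 941593 per library, and 3973 to 4819 genes were listed at 0. The locus taken from general knowledge to be OsWOX13 (Os01g0818400, listed as OsWOX8) overlapped between the lines, at 27.1 and 49.9 FPKM in OE13-2KR/oswox13-1, against 22.0 and 75.6 FPKM in OE13, and it does not check the labels. In bulk leaves, fewer cells of a type and less RNA per cell cannot be told apart. None of the 9 clock genes was among the 1135 genes with 1 RAP identifier that the authors' deposited table marks up. Of the 1112 of these found in the FPKM table, 1107 had a lower mean FPKM in OE13-2KR/oswox13-1, so up there stands for higher in OE13. These 1112 are a small part of the 33744 genes in the FPKM table, so the absence of 9 genes says little. The authors' list marked down could not be paired, so it was not read for clock genes higher in OE13-2KR/oswox13-1.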

How the data were processed

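Leaf RNA-seq libraries of 2 rice lines, 2 per line, were read as paired ends of 150 nt, per the labels' protocols; library titles gave the groups. The molecule is labelled genomic DNA, but the protocol describes RNA. Values in the authors' gene table are FPKM, per the file headers, and the sources used here do not say which program made them. Without roles, the submitters' processing notes list DESeq2 1.38.3, featureCounts 2.0.0, HISAT2 2.2.1 and the rice build IRGSP-1.0, to which the table's coordinates were taken to belong. The authors also deposited a log2 fold change per gene for their own comparison, per the file headers, and only the list marked up carries identifiers that pair with the FPKM table. A further 11 value columns match no sample and were not used.

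From FPKM, log2(FPKM + 1) was computed for the 20174 genes with a mean of at least 1 FPKM and fitted with limma 3.58.1 (R 4.3.3, trended variance, all 4 libraries, no covariate). Adjustment was by Benjamini-Hochberg over all genes tested, with a threshold of 0.05. This leaves 2 residual degrees of freedom plus 3.30 from the prior. The steps were tested on simulated data. Ratios of values under 0.3 FPKM between libraries piled up at 1 value for at most 1.09% of genes, so whole reads could not be recovered; depth stays unknown, and counting error could not be given. Nothing says that libraries of a line came from separate plants, so the spread behind each p-value is that of these libraries and may be technical.

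Clock genes and lists were chosen with earlier results of these data known. All 9 clock genes and every listed gene could be named; likeness was reported for the closest clock gene and, for LHY and TOC1, the 3 closest genes. Of the listed genes, 2 flowering, 1 root and 1 meristem identifiers had no row and were not analysed here, and 1 root identifier was dropped since the table names another gene. Promoter motifs were not analysed here. Alternatives were another pseudocount (0.1 or 5), filter (none, or 5 FPKM) or scaling (median ratio, quantile), no variance trend, a replicate block and leaving out each library.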

Additional observations from a re-analysis of the deposited data

How the results depend on the processing

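Of 108 values of the 9 clock genes under 12 alternatives each, 101 kept their direction, and no adjusted p fell below 0.191, that of TOC1 with a mean of at least 5 FPKM. LHY, TOC1, PRR37, PRR59, PRR95 and GI kept their direction under all 12. Direction turned for PRR73 with quantile normalisation (-0.036), for ELF3-1 with median-ratio scaling (0.065) and quantile normalisation (0.0015), and with a library left out for ELF3-1 (-0.24 to 0.21) and LUX (-0.12 to 0.32); the cause was not tested. Clock genes lower at an unadjusted p under 0.05 numbered 2 with quantile normalisation and 0 to 2 with a library left out, and those higher 0 to 1, that 1 being LHY. With a library left out, the median log2 fold change of the 9 was -0.12 to 0.0067, that of the partners -0.14 to 0.0013, that of the flowering genes -0.056 to 0.039 and that of the light signalling genes -0.062 to 0.33. With median-ratio scaling these medians were 0.065, -0.041, 0.038 and 0.23 in the same order. In the fit without alternatives they were -0.016, -0.12, -0.04 and 0.14. With quantile normalisation that of the flowering genes was 0.016. Over all genes, 2 passed as lower with a pseudocount of 5 and with quantile normalisation, 0 without a filter and with the replicate block, and 0 to 5 with a library left out. At an unadjusted p under 0.05, leaving out a library gave 783 to 1580 genes higher and 1000 to 3382 lower, fewest without OE13 replicate 2. The replicate numbers are not known to pair libraries: same-numbered libraries deviated with r = -0.09 across genes, and the block left TOC1 at an adjusted limma p of 0.287, with 0 clock genes passing as in the fit without it. With 2 libraries per line and unknown depth, the 95% intervals of all clock genes but TOC1 include 0, that of PRR95 among them. That of TOC1 is not adjusted for the number of genes tested.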

Other observations

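Besides the lists above, 34 genes carry the word circadian in the table's name, description or gene ontology terms; they were looked up after the values had been seen. The log2 fold change was above 0 for 14 and below 0 for 20 of them (median -0.10), and 0 passed limma's test after adjustment (lowest adjusted p 0.187). At an unadjusted p under 0.05, OE13-2KR/oswox13-1 had 5 higher and 4 lower, beside 8.00% and 12.0% of all genes. Without overlap, 9 were higher and 9 lower, beside 23.4% and 32.8% of all genes. Among the 34 are 3 genes that the table names for ELF4, the third partner of the evening complex. ELF4_chr.3 (Os03g0410300) had 21.9 and 19.2 FPKM in OE13-2KR/oswox13-1, against 16.6 and 15.6 FPKM in OE13, without overlap (log2 fold change 0.33, limma adjusted p = 0.364). ELF4_chr.11 (Os11g0621500) had 3.78 and 4.26 FPKM in OE13-2KR/oswox13-1, against 3.17 and 3.64 FPKM in OE13, also without overlap. ELF4_chr.8 (Os08g0366200) overlapped, at 5.69 and 7.90 FPKM in OE13-2KR/oswox13-1, against 6.36 and 7.36 FPKM in OE13. The gene with the lowest p of the 34 was CATB, a catalase gene, at 454 and 503 FPKM in OE13-2KR/oswox13-1, against 205 and 245 FPKM in OE13 (log2 fold change 1.09, limma adjusted p = 0.187).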
